A study of Caenorhabditis elegans with 6 samples.

Results

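The genes described here are 9 cell-division genes of *C. elegans*, the B-type cyclin genes cyb-1, cyb-2.1, cyb-2.2 and cyb-3 and the kinesin genes klp-7, klp-15, klp-16, klp-18 and klp-19. They were chosen by name, as embryonic cell-division genes linked to the CSR-1 pathway, and not by their measured values. Earlier results of these data were known when they were chosen. All 9 symbols matched gene identifiers in the annotation, and all 9 were among the 9285 loci with enough counts to be tested, of 22336 loci in the files. The values are counts of 22G-RNAs, antisense small RNAs with a length of 22 bases and a G as the first base, from small RNA sequencing of whole gravid adults. LOTR-1 is a germ granule protein with LOTUS and Tudor domains. The lotr-1 mutants were lotr-1(xf58), lotr-1(xf60) and lotr-1(xf61), 1 library each, and wild-type was the N2 strain, 3 libraries. Each allele is a partial deletion of lotr-1 on chromosome I, made with CRISPR/Cas9 in N2 and outcrossed. In xf58 the deletion keeps the reading frame and removes most of the LOTUS region. Each allele is a single strain. The study treated the 3 alleles as triplicates, and the same was done here. All worms were synchronized by bleaching, carried no other allele or treatment, and were collected 63 hours after plating.

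B-type cyclins bind the kinase CDK-1 and drive entry into mitosis and meiosis. Kinesins move along microtubules or depolymerize them, and the 5 named here act in the spindles of oocytes and embryos. In the *C. elegans* germline, 22G-RNAs made by RNA-dependent RNA polymerases are loaded into Argonautes. Those bound by CSR-1 are antisense to most genes expressed in the germline, and CSR-1 is needed for chromosome segregation in the embryo. A 22G-RNA count reports small RNAs made against a gene and does not report the level of its mRNA. In whole animals, fewer germ cells and fewer 22G-RNAs per germ cell cannot be told apart.

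The 6 libraries held between 3706296 and 4520488 counts. The lotr-1 gene itself had 88 counts in xf58, 20 in xf60 and 47 in xf61, against 245, 293 and 275 in the wild-type libraries, and part of the locus is missing in each allele. Across loci, xf60 and xf61 were alike (chi-square per degree of freedom 9.38), whereas xf58 stood apart from xf60 (60.3) and from xf61 (49.3). Between wild-type libraries it was 1.51 to 1.91, so none was a copy of another. TMM scaling factors, which set the middle of the loci equal between libraries, were 0.843 in xf58, 0.657 in xf60 and 0.706 in xf61, against 1.36, 1.36 and 1.39 in wild-type. With TMM the median locus had a log2 fold change of 0.01 (mutants over wild-type), and with scaling by total counts it had −0.88. This shift bears on every direction given for these genes. Values below are TMM-normalized counts unless total counts are named.

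The kinesin genes had many more 22G-RNAs than the cyclin genes in mutants and in wild-type alike. Per kilobase of exon, klp-7 had the highest level, with 706 normalized counts in the mutants and 553 in wild-type. The gene encodes a kinesin of the MCAK type that depolymerizes microtubules. Next came klp-16 with 645 in the mutants and 456 in wild-type, and klp-15 with 573 and 434 in the same order. KLP-15 and KLP-16 are closely related minus-end-directed kinesins that build the oocyte meiotic spindle. The level of klp-18, whose product makes the oocyte spindle bipolar, was 261 per kilobase in the mutants and 213 in wild-type. For klp-19, a chromokinesin gene, it was 171 in the mutants and 139 in wild-type. Among the cyclin genes, the mutants had 24.9 per kilobase at cyb-1, 32.3 at cyb-2.1, 42.2 at cyb-2.2 and 41.9 at cyb-3. In wild-type the same genes had 18.02, 38.5, 37.2 and 35.5 per kilobase. Within wild-type, the ranges per kilobase of klp-15 and klp-16 overlapped, as did those of cyb-2.1, cyb-2.2 and cyb-3, and the other neighbours in the order did not overlap. Against the 8550 protein-coding genes tested, the wild-type level per kilobase of klp-7 was above that of 94.3% of genes, that of klp-19 above 81.8% and that of cyb-1 above 20.7%.

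**Figure D1:**
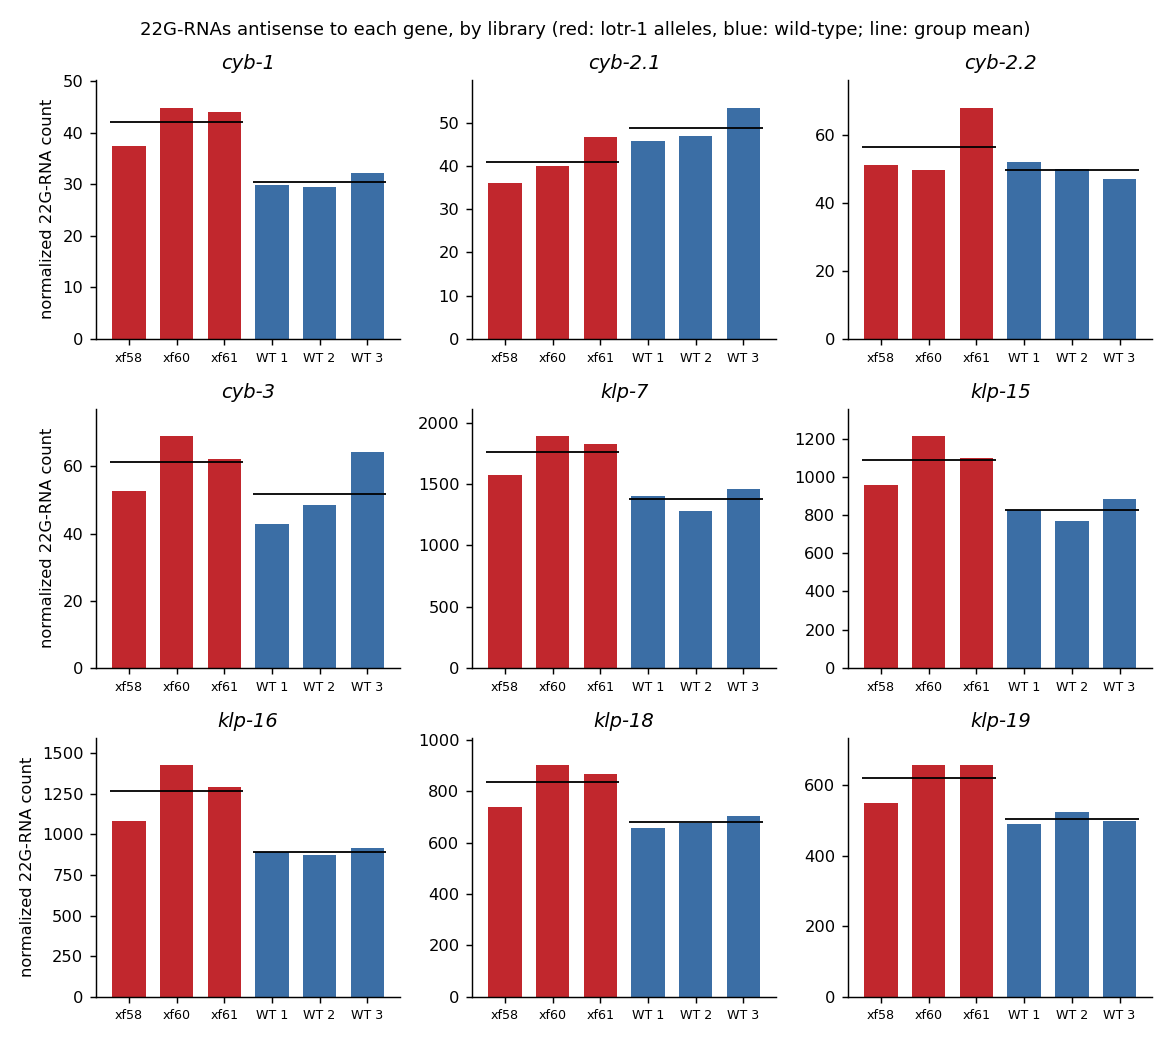
TMM-normalized 22G-RNA counts of the 9 genes as bars, 1 panel a gene with its own axis from 0, the 3 lotr-1 mutant libraries in red left of the 3 wild-type libraries in blue and a line at each group mean. The mutant bars are all above the wild-type bars for cyb-1 and for the 5 kinesin genes and overlap them in height for cyb-2.1, cyb-2.2 and cyb-3.

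Whether 22G-RNAs against these genes differed in lotr-1 mutants was tested with edgeR's quasi-likelihood test, with p-values adjusted by Benjamini-Hochberg over the 9285 loci. To be called, a locus needed more than 2-fold change together with an adjusted p under 0.1. None of the 9 genes was called, that is 0 higher and 0 lower, and DESeq2's Wald test also called 0. Of all loci tested, 36.4% were called, 18.8% higher and 17.6% lower in the mutants. At an unadjusted p under 0.05, edgeR counted 4 of the 9 genes, where 57.1% of all loci passed, and DESeq2 counted 3, where 54.5% passed. The 95% confidence intervals of the 9 log2 fold changes reached from −0.66 to 0.86, so with TMM a 2-fold change lay outside the interval of every gene.

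klp-7 (WBGene00002219, WBcel235 chromosome III, 10805925 to 10811001, plus strand) had 1579 normalized counts in xf58, 1891 in xf60 and 1828 in xf61, against 1401, 1283 and 1465 in the wild-type libraries. The groups did not overlap, and xf58 was the mutant closest to wild-type. Its log2 fold change was 0.35 (95% interval 0.03 to 0.68, edgeR adjusted p = 0.0706). In embryos, KLP-7 is known as a protein whose amount is limited through CSR-1.

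klp-15 (WBGene00002225, chromosome I, 5577070 to 5579194, minus strand) had 957, 1211 and 1099 normalized counts in xf58, xf60 and xf61, against 824, 768 and 882 in the wild-type libraries. klp-16 (WBGene00002226, chromosome I, 9512452 to 9514637, plus strand) had 1080, 1426 and 1290 in the same mutant order, against 892, 876 and 915 in wild-type. In both genes all mutant libraries exceeded all wild-type libraries, and xf60 was the highest library. The log2 fold change of klp-15 was 0.40 (0.05 to 0.75, edgeR adjusted p = 0.0598). That of klp-16 was 0.50 (0.15 to 0.86, edgeR adjusted p = 0.0285), which is 1.42-fold.

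klp-18 (WBGene00002228, chromosome IV, 7040211 to 7043694, plus strand) had 738, 901 and 865 normalized counts in xf58, xf60 and xf61, against 658, 675 and 705 in the wild-type libraries. klp-19 (WBGene00002229, chromosome III, 13302717 to 13307259, minus strand) had 548, 655 and 656 in the mutants, against 490, 524 and 499 in wild-type. The groups did not overlap in either gene, with xf58 just above the highest wild-type library. The log2 fold change was 0.30 for klp-18 (−0.04 to 0.63, edgeR adjusted p = 0.124) and 0.30 for klp-19 (−0.04 to 0.63, edgeR adjusted p = 0.121). 44 exon bases of klp-19 are shared with pgm-2 on the opposite strand, and the counts are by strand.

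cyb-1 (WBGene00000865, chromosome IV, 10735216 to 10737177, plus strand) encodes a B-type cyclin of the early embryo and had 37.3, 44.9 and 43.9 normalized counts in xf58, xf60 and xf61. In the wild-type libraries it had 29.8, 29.5 and 32.1. It was the only cyclin gene whose groups did not overlap, with a log2 fold change of 0.46 (0.06 to 0.86, edgeR adjusted p = 0.0582). The values rest on 27, 28 and 31 raw counts in the mutants and 39, 42 and 39 in wild-type. Its normalized direction is thus opposite to that of its raw counts, as it is for cyb-2.2, cyb-3 and all the kinesin genes. For klp-7 the raw counts were 1142, 1180 and 1291 in the mutants and 1832, 1828 and 1779 in wild-type.

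cyb-2.1 (WBGene00000866, chromosome IV, 10985985 to 10987426, plus strand) had 36.0, 40.1 and 46.7 normalized counts in the mutants, against 45.9, 47.0 and 53.5 in wild-type. cyb-2.2 (WBGene00000867, chromosome I, 4114861 to 4116370, plus strand), its close paralog, had 51.2, 49.7 and 68.0 in the mutants, against 52.0, 49.9 and 46.9 in wild-type. In both genes the groups overlapped, through xf61 in cyb-2.1 and through xf58 and xf60 in cyb-2.2. The log2 fold change was −0.25 for cyb-2.1 (−0.66 to 0.16, edgeR adjusted p = 0.265), the only negative one of the 9, and 0.18 for cyb-2.2 (−0.23 to 0.60, edgeR adjusted p = 0.414).

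cyb-3 (WBGene00000868, chromosome V, 15395696 to 15397353, plus strand), the B-type cyclin gene of the cyclin B3 type, had 52.5, 68.9 and 62.3 normalized counts in xf58, xf60 and xf61. In the wild-type libraries it had 42.8, 48.4 and 64.2, so 1 wild-type library lay inside the mutant range. The log2 fold change was 0.24 (−0.25 to 0.73, edgeR adjusted p = 0.368), with the widest interval of the 9 genes.

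Without a fold cutoff, 4 of the 9 genes (cyb-1, klp-7, klp-15 and klp-16) had an adjusted p under 0.1, all higher, where 29.3% of all loci were. The mutants lay above wild-type in all libraries in 6 of the 9 genes, where 29.7% of all loci did. The count of 4 changed in every fit with 1 library left out. It was 0 without wild-type library 2, and 1 each without wild-type library 1, wild-type library 3, xf60 or xf61. It was 6 without xf58. These fits also have fewer libraries to estimate the spread. In them the log2 fold change of klp-7 ran from 0.29 (without wild-type library 2) to 0.43 (without xf58), against 0.35 with all libraries. The count was also 0 with no filter on low counts.

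The direction depended on the scaling. With total counts in place of TMM, the log2 fold change was negative in all 9 genes, between −1.15 and −0.41, and all 9 had an adjusted p under 0.1, where 65.5% of all loci had one in that direction. cyb-2.1 was the 1 gene called, at −1.15 (−1.56 to −0.75, edgeR adjusted p = 0.00128), and for it alone the sign was the same with both scalings. For klp-7 the CPM (each count scaled by the library's total) were 308, 288 and 299 in xf58, xf60 and xf61, against 439, 404 and 470 in wild-type. For klp-16 they were 211, 217 and 211 in the mutants, against 279, 276 and 293 in wild-type. In each of the 9 genes all 3 mutant libraries lay below all 3 wild-type libraries on this scale, as they did in 65.5% of all loci. A change of scaling shifts all loci by nearly the same amount. Set against the median locus, the genes therefore had to keep nearly the same values under both scalings. With TMM the 5 kinesin genes lay between 0.28 and 0.49 above the median log2 fold change, and with total counts between 0.27 and 0.47. With TMM, klp-16 was higher in log2 fold change than 69.8% of loci, cyb-1 than 68.5%, klp-19 than 62.4% and cyb-2.1 than 39.9%.

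**Figure D2:**
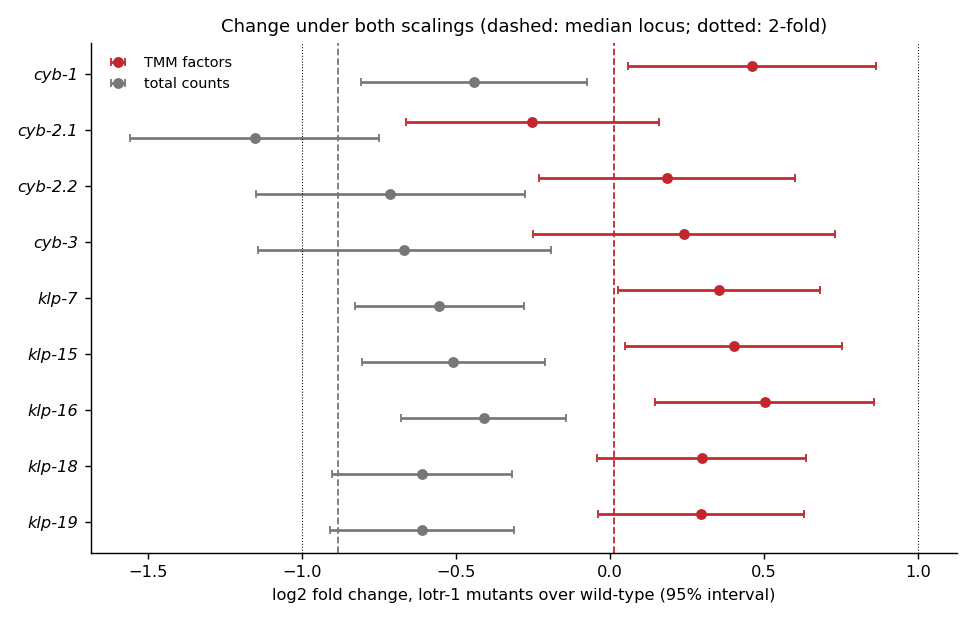
Log2 fold change (lotr-1 mutants over wild-type) of each gene with its 95% confidence interval under TMM and under total counts, with dashed lines at the median of all loci under each scaling and dotted lines at 2-fold. With TMM 8 of the 9 genes are above 0, and with total counts all 9 are below 0.

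The 9 genes together took 0.0991% of all 22G-RNA counts in xf58, 0.0956% in xf60 and 0.0975% in xf61, against 0.139%, 0.136% and 0.149% in the wild-type libraries. The 95% Wilson intervals of each mutant and each wild-type library were apart, the nearest bounds being 0.102% in xf58 and 0.132% in wild-type library 2. These intervals cover counting error only. With total counts, the mutants lay below wild-type in all libraries in 65.5% of all loci. The median log2 fold change on that scale was −0.88 over all loci and −0.61 over the 9 genes. The 5 kinesin genes averaged 0.0940% ± 0.0016 in the mutants and 0.136% ± 0.0068 in wild-type (SD, n = 3 each). The 4 cyclin genes averaged 0.0034% ± 0.00027 in the mutants and 0.0057% ± 0.00052 in wild-type (SD, n = 3 each). A share depends on the counts of all other loci and does not give an amount per animal.

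**Figure D3:**
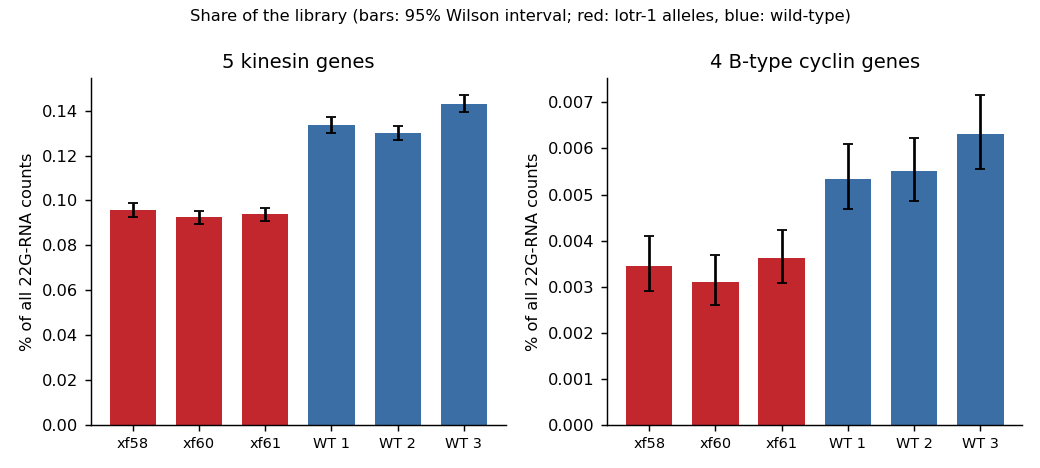
Share of all 22G-RNA counts (percent) taken by the 5 kinesin genes and by the 4 cyclin genes in each library, as bars, mutants left of wild-type, with 95% Wilson intervals. The kinesin share is 0.0925% to 0.0956% in the mutants and 0.130% to 0.143% in wild-type.

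Each allele was also compared with the wild-type mean, on log2 normalized counts with a prior count of 2. With 1 library an allele, these are values without a test. None of the 9 genes passed 2-fold in any allele, where 30.5% of loci did in xf58, 41.6% in xf60 and 41.5% in xf61. Over the 9 genes the median difference was 0.12 for xf58, 0.42 for xf60 and 0.40 for xf61. For the kinesin genes the differences ran 0.12 to 0.27 for xf58, 0.38 to 0.67 for xf60 and 0.35 to 0.53 for xf61. klp-16 gave the highest value in xf60 (0.67) and in xf61 (0.53), and cyb-1 in xf58 (0.28). xf58 was the lowest of the 3 alleles in 8 of the 9 genes, all except cyb-2.2. This order went with the scaling, since with total counts xf58 was the lowest allele in 1 of the 9 genes and the medians were −0.58, −0.60 and −0.55 in xf58, xf60 and xf61.

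**Figure D4:**
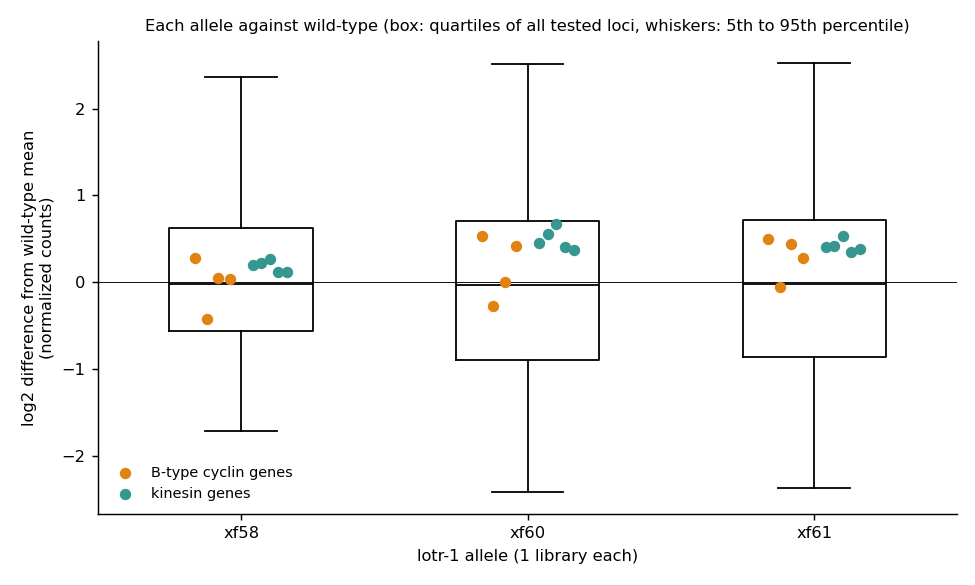
Log2 difference of each allele from the wild-type mean for the 9 genes as points (TMM-normalized counts, prior count 2, 1 library an allele), over boxes with the quartiles of all tested loci. The xf60 and xf61 points of the kinesin genes lie between 0.35 and 0.67 and the xf58 points between 0.12 and 0.27.

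cyb-2.1 and cyb-2.2 are close paralogs, as are klp-15 and klp-16, both with 1761 coding bases. Reads with several equally good positions were placed at 1 of them at random, so the counts within a pair are uncertain and each pair was also summed. cyb-2.1 and cyb-2.2 together had 97.2 ± 15.3 normalized counts in the mutants and 98.4 ± 1.85 in wild-type (SD, n = 3 each), with a log2 fold change of −0.02 (−0.39 to 0.36, edgeR adjusted p = 0.942). klp-15 and klp-16 together had 2356 ± 302 in the mutants and 1718 ± 76.7 in wild-type (SD, n = 3 each), with a log2 fold change of 0.46 (0.11 to 0.80, edgeR adjusted p = 0.0349), under the fold cutoff. The adjusted p of this sum was 0.117 without wild-type library 1 and 0.146 without wild-type library 2. With total counts the sums gave −0.92 (edgeR adjusted p = 0.00293) and −0.46 (edgeR adjusted p = 0.00689).

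Genes of the same processes were taken from lists by function, which may be incomplete. Only 14 of 19 symbols of other kinesins and 5 of 7 of the CSR-1 pathway matched the annotation. The unmatched symbols were left out, and some may be other names of genes already listed. The counts called in each list stand against 36.4% of all loci called, 18.8% higher and 17.6% lower. Of 31 CDK and mitotic regulator genes tested, 0 were called higher and 3 lower, with a median log2 fold change of 0.12. These were cye-1 (−1.52), the cyclin E gene, cdc-25.2 (−1.34), a gene for a CDK-activating phosphatase, and air-1 (−1.15), the Aurora A kinase gene. Of 12 other kinesin superfamily genes tested, 2 were called higher and 3 lower, with a median of −0.02. Higher were osm-3 (1.70) and klp-6 (1.21), which encode kinesins of ciliated sensory neurons, and klp-12 (−2.24) and vab-8 (−1.10), the gene of a kinesin-like protein for axon and cell migration, were among the lower ones. The remaining lower one was unc-104 (−1.07), a gene for the kinesin that carries synaptic vesicle precursors, named after its value was seen. Of 40 spindle, centrosome and kinetochore genes tested, 2 were called higher and 2 lower, with a median of 0.22. They were the CLASP gene cls-3 (1.28) and the beta-tubulin gene tbb-2 (1.14), and the katanin gene mei-1 (−1.27) and the kinetochore gene ndc-80 (−1.01). Of 5 CSR-1 pathway genes tested, 0 were called higher and 1 lower, cid-1 (−1.98), with a median of −0.35. The median of the 9 cyclin and kinesin genes was 0.30 and that of all loci 0.01. With total counts osm-3, klp-6, cls-3 and tbb-2 were no longer called, at 0.83, 0.33, 0.37 and 0.24. Single libraries also decided 4 calls: ndc-80 was within 2-fold without wild-type library 2 (−0.999), xf60 (−0.97) or xf61 (−0.94), unc-104 without wild-type library 2 (−0.98) or xf61 (−0.85), vab-8 without xf58 (−0.84) and air-1 without xf61 (−0.89). ndc-80 was also within 2-fold with DESeq2's size factors (−0.998), TMM from genes alone (−0.993) and DESeq2's Wald test (−0.998), as was tbb-2 with no count filter (0.996).

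**Figure D5:**
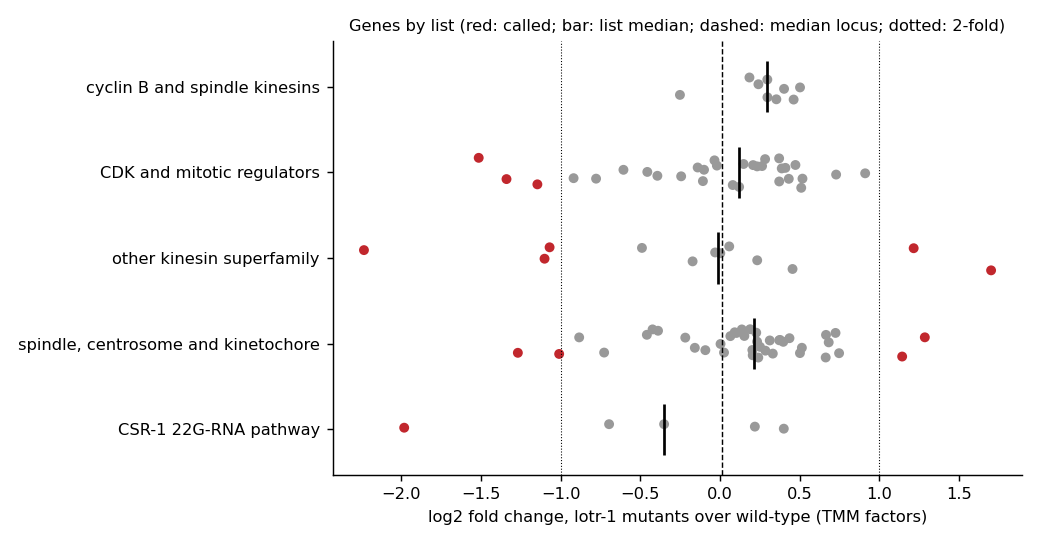
Log2 fold change (lotr-1 mutants over wild-type, TMM) of each gene tested in the 4 lists and of the 9 cyclin and kinesin genes, as points, red where called, with a bar at each list's median, a dashed line at the median locus and dotted lines at 2-fold. The 9 genes span −0.25 to 0.50, inside the 2-fold lines, and the other kinesin genes span −2.24 to 1.70.

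The genes whose pattern was most like that of the cyclin and of the kinesin gene with the highest wild-type level per kilobase (cyb-2.1, whose wild-type range overlapped those of cyb-2.2 and cyb-3, and klp-7) were looked up by Euclidean distance over the 6 libraries, on log2 normalized counts centred on the wild-type mean. For klp-7, among 3471 protein-coding genes with a mean of at least 100 counts, they were plk-2 (distance 0.0618), klp-15 (0.109) and cni-1 (0.143). For cyb-2.1, among 3472 genes, they were him-6 (0.148), mtr-4 (0.149) and lin-61 (0.150). The libraries share their scaling, and these distances are a description.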

How the data were processed

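The authors removed adapters with cutadapt 2.4 and used Bowtie 1.2.2 for alignment to WBcel235, placing reads with several equal positions at 1 of them at random, and counted 22G-RNAs antisense to exons (Ensembl genes) and to transposons with featureCounts 1.6.2. They deposited raw counts per locus, 1 file per library. Here, 22014 of 22185 gene identifiers matched the Ensembl annotation of WBcel235, from which positions were taken. Counts were filtered with filterByExpr, scaled with TMM and fitted with edgeR 4.0.16 in R 4.3.3 over all loci. For normalized counts, each count was divided by its library's effective size and multiplied by the mean of these sizes. DESeq2 1.42.0, other scalings, filters and thresholds, a block for the replicate number, and fits without each single library were alternatives, and the procedure was tested on simulated data. Nothing states that the 3 wild-type libraries came from separate cultures, so p-values measure only the spread between these samples. The 3 mutant libraries are 3 different alleles. Their spread, and every SD of the mutants, therefore mixes differences between alleles with differences between libraries. The 9 genes and the lists were chosen with earlier results of these data known. Named genes were the 9, lotr-1, up to 4 called genes a list with the largest absolute change, and the nearest 3 patterns. The 3 allele comparisons share the wild-type libraries. Total depth limits the cyclin genes, with 25 to 78 counts a library.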

Additional observations from a re-analysis of the deposited data

How the results depend on the processing

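Total counts moved the most results: 806 loci were called higher and 4149 lower, 1 of the 9 genes was called (lower) and their median was −0.61 (xf58 −0.58, xf60 −0.60, xf61 −0.55). The sign turned for cyb-1 (−0.44), cyb-2.2 (−0.71), cyb-3 (−0.67), klp-7 (−0.55), klp-15 (−0.51), klp-16 (−0.41), klp-18 (−0.61), klp-19 (−0.61) and klp-15 with klp-16 (−0.46). With no count filter the median of the 9 genes was 0.15, and the cause was not tested. Testing against 2-fold called 2005 loci with edgeR (1155 higher, 850 lower) and 1332 with DESeq2 (858 higher, 474 lower). No fold cutoff called 5467 (2725 higher, 2742 lower) and 4 of the 9 genes. Against 3 mitotic regulator, 5 other kinesin, 4 spindle and 1 CSR-1 pathway genes called, total counts called 12, 5, 9 and 3, no fold cutoff 13, 7, 20 and 4, edgeR's test against 2-fold 2, 2, 1 and 1, and DESeq2's 0, 2, 0 and 1. Leaving out 1 library gave a median of 0.26 (without xf60) to 0.39 for the 9 genes (0.38 without xf58, 0.27 without wild-type library 1), 0.098 to 0.198 for xf58 and 0.383 to 0.495 for xf60. The sum of cyb-2.1 and cyb-2.2 ranged from −0.14 to 0.062, turning sign without xf58 (0.062, edgeR adjusted p = 0.723) and without xf60 (0.031, edgeR adjusted p = 0.899). For single named genes, 344 recomputed fold changes kept direction and call, 34 kept direction and lost the call, 5 kept direction and gained one, and 8 turned sign. The median of all loci was −0.0083 with the replicate block.

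The correlations of same-numbered deviations were 0.0083, 0.0339 and −0.0343, and those of differently numbered ones ran from −0.045 to 0.0356. They cannot decide whether same-numbered libraries shared a batch, because the mutant deviations also hold differences between alleles. With the replicate block the median of the 9 genes was 0.29, 0 were called and 1 had an adjusted p under 0.1. Depth limits the cyclin genes most.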

Other observations

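Shares within a library do not depend on the scaling, and these were chosen after the values were seen. klp-16 took 22.03% to 23.4% of the counts of the 5 kinesin genes in the mutants and 20.5% to 21.2% in wild-type, without overlap. klp-18 took 14.8% to 15.1% in the mutants and 15.4% to 16.4% in wild-type, also without overlap. For both, exact binomial intervals of single libraries overlapped between the groups (klp-16 20.7% to 23.4% in xf58 and 20.2% to 22.3% in wild-type library 2, klp-18 13.9% to 16.3% in xf58 and 14.5% to 16.4% in wild-type library 1). The ranges of klp-7, klp-15 and klp-19 overlapped. Within klp-15 and klp-16, the klp-16 share was 53.0% to 54.1% in the mutants and 50.9% to 53.3% in wild-type, with overlap. Random placement of reads with several equal positions leaves the split within each paralog pair uncertain. The 4 cyclin genes took 3.24% to 3.71% of the counts of the 9 genes in the mutants and 3.84% to 4.22% in wild-type, where the exact intervals also overlapped (3.16% to 4.32% in xf61 and 3.36% to 4.37% in wild-type library 1). Within cyb-2.1 and cyb-2.2, the cyb-2.1 share was 40.7% to 44.6% in the mutants and 46.9% to 53.3% in wild-type, and the exact binomial intervals of the libraries overlapped (31.3% to 58.5% in xf60 and 38.0% to 55.9% in wild-type library 1).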
